A study of Mus musculus with 40 samples.

Results

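The comparison described here was the loss of Dux in mouse embryonic stem cells that already lack both CtBP corepressor genes. Its members were the 2 libraries of Ctbp1/Ctbp2 double knockout cells (CtbpDKO) and the 2 libraries of cells with the same double knockout plus a Dux knockout (Ctbp_DuxTKO), 4 of the 40 samples of the series, chosen by the columns of the genotype count table that carry these names. All cells were E14tg2a, an embryonic stem cell line grown in serum medium with LIF. RNA was measured by stranded RNA sequencing of whole cultures. Of 55276 genes in the table, 21193 had enough counts to be tested. Other groups of the same table had 2 libraries each: unmodified cells (WT), cells with the Dux knockout alone (DuxKO) and, for the shared estimate of spread only, cells without Dppa2 and cells without both Ctbp genes and Dppa2. A separate time course of 10 libraries followed CtbpDKO cells, labelled Dox, on days 0, 3, 9, 12 and 18. The labels do not say whether each knockout is 1 clone or whether the libraries of a group came from separate cultures, so the p-values measure the spread between these libraries only.

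Dux is a homeobox transcription factor that is expressed briefly in the 2-cell mouse embryo, where it switches on genes and retroviral repeats of zygotic genome activation. A small fraction of cultured embryonic stem cells enters a similar state and expresses Zscan4, Usp17-like, Tdpoz and Tcstv genes. CtBP1 and CtBP2 are corepressors that recruit histone deacetylases and demethylases to DNA-bound repressors and have no DNA-binding specificity of their own. The comparison asked which part of the transcriptome of Ctbp-deficient cells was lower, higher or not detectably different once Dux was also missing. In whole cultures, fewer cells of a type and less RNA per cell cannot be told apart.

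A short sequence was searched for in the promoters of the genes that fell without Dux, and the following stretches are shown because each holds it or a looser form of it. It was found in a minority of the promoters available, several of them near-identical copies. Duxf3, shown among them, is the knocked-out gene itself. The sequence searched was GATTNAATC, the core of the site known for mouse Dux, which reads the same on both strands apart from its central N. Each stretch is 89 bases long, read 5′ to 3′ on the gene's strand from RefSeq promoters of GRCm38.p6, and the capitals mark the match.
Duxf3 (chr10:58233180-58233268, minus strand): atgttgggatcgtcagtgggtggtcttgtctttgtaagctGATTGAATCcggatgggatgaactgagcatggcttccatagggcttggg
Gm4340 (chr10:104193856-104193944, plus strand): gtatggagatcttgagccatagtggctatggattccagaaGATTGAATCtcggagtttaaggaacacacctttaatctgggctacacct
Eif4a3l1 (chr6:136327383-136327471, plus strand): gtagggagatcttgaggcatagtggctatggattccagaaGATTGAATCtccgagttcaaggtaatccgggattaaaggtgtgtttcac
AF067061 (chr13:120262930-120263018, plus strand): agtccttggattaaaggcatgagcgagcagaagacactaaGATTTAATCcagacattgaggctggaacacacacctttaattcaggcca
The Zscan4 promoters held no match to this sequence but matched a looser core, GATTNNATC, searched on both strands. For the Zscan4 genes the capitals mark that core as read from the other strand.
Zscan4c (chr7:11005592-11005680, plus strand): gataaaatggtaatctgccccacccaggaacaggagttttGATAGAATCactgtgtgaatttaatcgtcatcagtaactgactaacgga
Zscan4f (chr7:11397785-11397873, plus strand): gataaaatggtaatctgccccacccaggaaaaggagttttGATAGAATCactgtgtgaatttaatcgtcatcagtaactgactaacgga

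GATTNAATC lay in 10 of the 37 promoters available for genes that were called lower by a log2 fold change of at least 2, a share of 27.0%. Over all genes called lower the share was 1.77% (11 of 622), over all tested genes 0.24% (30 of 12523), and among genes called higher the sequence was found in 0 of 536 promoters. Each promoter window spanned 250 bases before to 50 bases after the annotated start. Only 37 of the 122 most strongly lower genes had a promoter in the RefSeq table. The matches are not independent of each other, because several belong to near-identical copies. Gm4340, Gm8764, Gm20765, Gm21293, Gm21304 and Gm21312 lie together on chromosome 10, and AF067061 and Gm21761 on chromosome 13. The stretch printed for Gm4340 was letter for letter the same for Gm8764, Gm20765 and Gm21293. Duxf3, also among the 10, is the gene knocked out, so its match says nothing about other genes that fell. The looser core was present in 37.8% of the promoters of the strongly lower genes and in 1.25% of all tested promoters. Its overlap with the stricter sequence is complete, since every GATTNAATC is also a GATTNNATC. A match describes the letters of these windows and is not a measured binding site.

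Dux RNA was present in the double knockout and absent from both libraries of the triple knockout. Duxf3, the row of the table that stands for the Dux gene (GRCm38.p6 chr10:58229505-58233089), had 40 and 24 counts in the CtbpDKO libraries and 0 and 0 in the Ctbp_DuxTKO libraries. It had 1 and 0 counts in WT and 0 and 0 in DuxKO. Against a floor of 3 counts per library, Duxf3 was at least 8.28-fold lower in Ctbp_DuxTKO than in CtbpDKO (adjusted p = 0.0197 by edgeR's quasi-likelihood F test, Benjamini-Hochberg). The call was lost when any 1 of the 4 libraries was left out, with an adjusted p of up to 0.163. Dux lies in a tandem array of near-identical copies, among which the counting could divide reads. Ctbp1 stood at 0.0305 and 0.0559 CPM (counts scaled to library size by TMM) in CtbpDKO and at 0.0867 and 0.136 CPM in Ctbp_DuxTKO, against 64.1 and 68.8 CPM in WT. Ctbp2 was at 43.6 and 43.8 CPM in CtbpDKO and 40 and 40.3 CPM in Ctbp_DuxTKO, against 211 and 215 CPM in WT. Neither Ctbp gene passed the test between the double and the triple knockout (adjusted p = 0.413 and 0.40, edgeR).

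Total counts were 33345147 and 32606956 in the CtbpDKO libraries and 23909580 and 27700019 in the Ctbp_DuxTKO libraries. The share of counts on a set of abundant structural RNA genes was 12.1% and 8.79% in CtbpDKO and 15.5% and 10.5% in Ctbp_DuxTKO, and mitochondrial genes took 0.582% to 1.00% and 1.05% to 1.19%. Leaving these genes out changed the number of called genes from 1727 to 1717, with higher genes going from 764 to 810 and lower genes from 963 to 907. The 8 embryonic stem cell markers were expressed in all 4 libraries, with a summed level of 2700 to 2850 CPM in CtbpDKO and 2560 to 2660 CPM in Ctbp_DuxTKO, and 1 of them, Esrrb, was called (log2 fold change −0.36). Pou5f1 was at 615 and 551 CPM against 524 and 541 CPM, and Nanog at 148 and 157 CPM against 138 and 143 CPM, with no call for either.

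Loss of Dux without Ctbp changed 1727 genes, of which 764 were higher (3.60% of the genes tested) and 963 lower (4.54%) in Ctbp_DuxTKO at an adjusted p under 0.05. The 2 directions differed in shape. At a log2 fold change of at least 1 there were 329 higher and 208 lower genes, and at 4 or more there were 13 higher and 101 lower genes. Of the lower genes, 63 had no count in either triple knockout library, while 6 of the higher genes had none in either double knockout library. Of the 122 genes lower by at least 2, 83 carried a predicted-gene symbol (Gm or Rik). The 2 libraries of each group lay apart from those of the other group for all 1727 called genes. A call from 2 libraries per group nearly requires this, so it adds nothing to the calls. The count depended on the number of libraries: it fell to 558 without CtbpDKO replicate 1, 837 without CtbpDKO replicate 2, 624 without Ctbp_DuxTKO replicate 1 and 1250 without Ctbp_DuxTKO replicate 2, where the lone library of a group is assumed to vary like the other groups. DESeq2 called 748 genes higher and 821 lower, of which 658 and 745 were also called by edgeR.

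**Figure D1:**
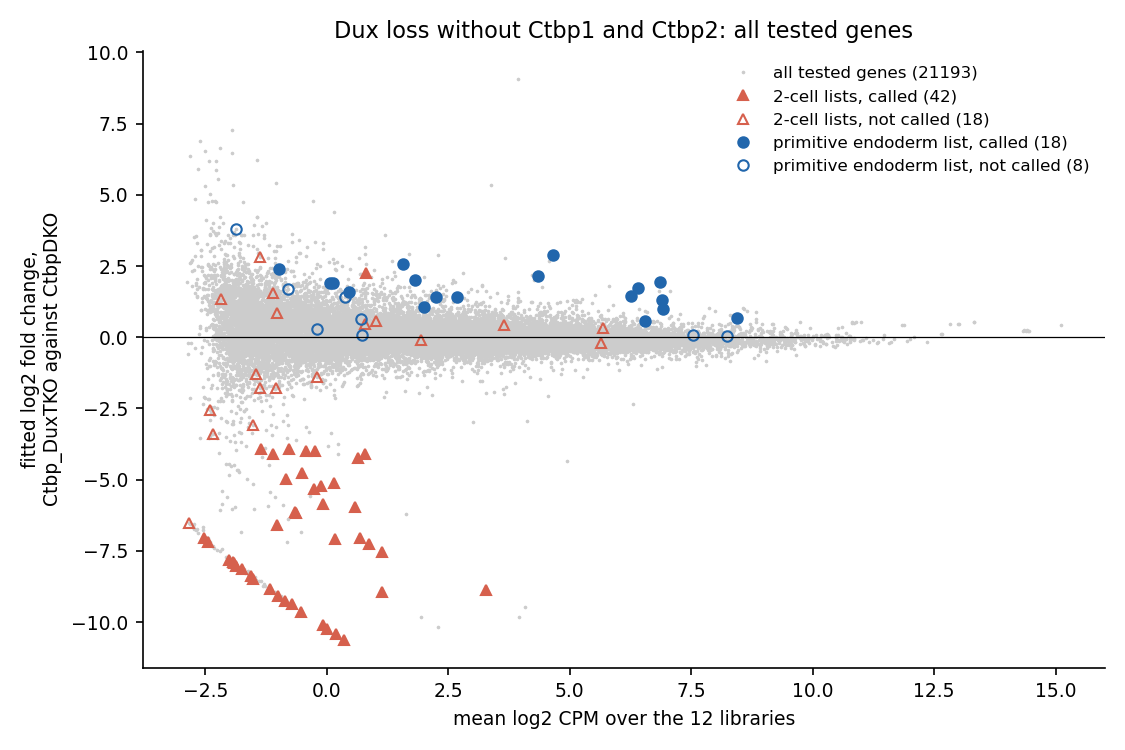
Each point is a gene, with its mean log2 CPM over the 12 libraries of the fit on the x axis and its fitted log2 fold change between Ctbp_DuxTKO and CtbpDKO on the y axis. Red triangles are members of the 2-cell lists and blue circles members of the primitive endoderm list, filled where called; 41 filled triangles lie below 0 and all 18 filled circles above it. The line of triangles at the lower left is made of genes with no count in the triple knockout, whose fitted values depend on the prior count.

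Most tested genes of the 2-cell state fell. Of 100 listed names, 90 were in the table and 60 were tested, and 41 of those 60 fell, 1 rose and 18 did not pass the test. Their median fitted log2 fold change was −5.59, against 0.00 over all tested genes. It was −3.96 when genes with at most 3 counts in each triple knockout library were set to a floor of 3 counts there, again against 0.00. All 9 tested members of the Zscan4 family fell, as did all 5 Usp17-like genes, 1 of 3 Tdpoz and Tcstv genes and 26 of 43 other members. The number called lower was 27 without CtbpDKO replicate 1, 25 without CtbpDKO replicate 2, 27 without Ctbp_DuxTKO replicate 1 and 31 without Ctbp_DuxTKO replicate 2. DESeq2 gave all 41 genes an estimate below 0, called 18 of them, gave 8 an adjusted p above the threshold and gave 15 none. The lists were drawn from 2-cell genes known in these cells and with results of these data in view, so their direction is not independent evidence. Several members, such as Zscan4b, Zscan4e and Usp17la, had counts in CtbpDKO but none in WT, DuxKO or Ctbp_DuxTKO, so they could only fall. Duxf3, the gene knocked out, was among the 41. The share called lower and the median are therefore partly set by which members could be tested.

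Zscan4 genes encode zinc finger proteins that mark the 2-cell state and act in telomere maintenance. Zscan4c, on chromosome 7 (GRCm38.p6 chr7:11005745-11010547), had 323 and 476 counts in CtbpDKO and 3 and 0 in Ctbp_DuxTKO. That was a pooled ratio of 204, with a 95% counting interval of 69.5 to 991 (adjusted p = 0.000163, edgeR). Zscan4f had 307 and 487 counts against 1 and 0, a pooled ratio of 608 with an interval of 109 to 24000. Both triple knockout libraries lay far under both double knockout libraries for each gene. Zscan4d, with 88 and 104 counts against 0 and 0, was at least 24.5-fold lower, Zscan4a (157 and 241 against 0 and 0) at least 50.4-fold, Zscan4b (110 and 214 against 0 and 0) at least 40.9-fold and Zscan4e (142 and 209 against 0 and 0) at least 44.5-fold. For Zscan4a, Zscan4b and Zscan4c the DESeq2 test made no call, with adjusted p of 0.28, 0.302 and 0.145. The counting intervals and the floor cover counting error only. The Zscan4 genes are near-identical copies, and how reads that fit several copies were assigned is not given in the sources used here, so the values of single copies are uncertain while the fall of the family rests on all of them.

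Usp17-like genes encode deubiquitinating enzymes and lie in tandem on the same chromosome. Usp17le had 219 and 235 counts in CtbpDKO and 0 and 0 in Ctbp_DuxTKO and was at least 58.0-fold lower (adjusted p = 0.000113, edgeR). Usp17la, with 76 and 82 counts against 0 and 0, was at least 20.2-fold lower. Usp17lb (91 and 116 against 0 and 2 counts), Usp17lc (151 and 167 against 2 and 2) and Usp17ld (104 and 100 against 2 and 0) kept at most 2 counts in a triple knockout library. DESeq2 made no call for Usp17lb (adjusted p = 0.288) or Usp17ld (adjusted p = 0.353). No library of one group reached the range of the other for any of the 5. Among Tcstv and Tdpoz genes, Tcstv3 fell from 45 and 23 counts to 0 and 0, at least 8.82-fold, a call that was lost whichever of the 4 libraries was left out. Tcstv1, with 12 and 14 counts against 0 and 0, and Tdpoz5, with 12 and 32 against 0 and 3, did not pass the test (adjusted p = 0.0639 and 0.127, edgeR).

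The other members of the 2-cell lists covered a wide range of counts. Gm4340, one of several copies on chromosome 10, had 1753 and 2024 counts in CtbpDKO and 0 and 6 in Ctbp_DuxTKO, a log2 fold change of −8.87 ± 0.62 (SE; adjusted p = 4.41e-06, edgeR). Without Ctbp_DuxTKO replicate 2, the library that held its 6 counts, the fitted value was −13.66, which depends on the prior count. Eif4a3l1, a retrocopy related to the RNA helicase Eif4a3, had 249 and 258 counts against 4 and 2, a log2 fold change of −5.95 ± 0.58 (adjusted p = 7.79e-05). Its relative Eif4a3l2, which is not in the lists, had 167 and 167 counts against 4 and 11, a log2 fold change of −4.10 ± 0.45 (adjusted p = 0.00015). For these 3 genes the triple knockout libraries kept single-digit or low double-digit counts and did not overlap the double knockout. Tmem92, a transmembrane protein gene, had 58 and 75 counts against 0 and 0 and was at least 16.9-fold lower. Sp110, a nuclear body protein gene with 34 and 44 counts against 2 and 5, just missed the threshold (adjusted p = 0.0501, edgeR). Pnma5 was the exception of the lists: it rose from 1.04 and 1.09 CPM to 5.46 and 4.79 CPM, a log2 fold change of 2.26 ± 0.30 (adjusted p = 0.000542).

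**Figure D2:**
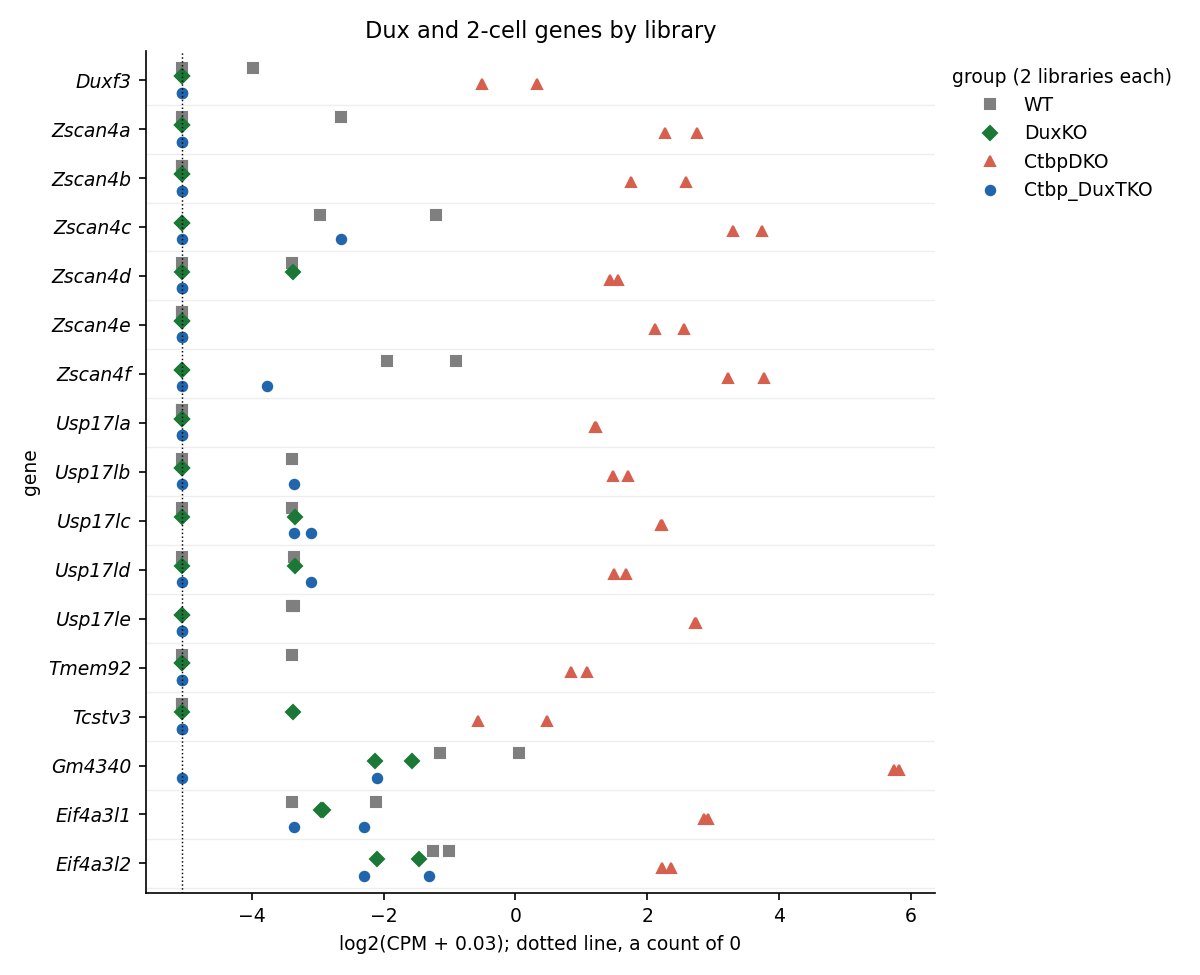
Each row is a gene and each symbol a library, with log2(CPM + 0.03) on the x axis and a dotted line at a count of 0; symbols mark the 4 groups with 2 libraries each. In every row the 2 CtbpDKO libraries (red triangles) lie to the right of the Ctbp_DuxTKO libraries (blue circles), and for Duxf3, Zscan4a, Zscan4b, Zscan4d, Zscan4e, Usp17la, Usp17le, Tmem92 and Tcstv3 both triple knockout libraries sit at 0.

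Many of the strongly lower genes lay near each other on the chromosomes. Of the 101 genes lower by at least 4 on the log2 scale, 83 had a position in RefSeq, and 70 of these lay in 12 runs in which neighbours were at most 1000000 bases apart. All 9 tested genes of the Zscan4 interval (chr7:10794241-11614112) belonged to it, as did all 7 tested genes of an interval around Gm4340 (chr10:104142987-104196522) and 8 of 9 in a second interval of chromosome 10 (chr10:100330549-100382560). On chromosome 13, 9 of 17 tested genes of the interval that holds Tcstv3 and AF067061 (chr13:119827961-120318261) were lower by at least 4, and on chromosome 12, 12 of 20 (chr12:87479986-88321762). Each interval was drawn from the strongly lower genes themselves and starts and ends on such a gene, so the shares inside are raised by construction. How often other tested genes form such runs was not counted. These intervals are tandem families of similar copies, so their members share sequence and reads. Among these genes, chosen after their values were seen, were Gm21304 (2903 and 3198 counts against 0 and 5), Gm20765 (913 and 936 against 0 and 1) and Gm21312 (699 and 735 against 0 and 1), all neighbours of Gm4340. Another predicted gene, Gm44261, also chosen so, rested on 1 library, with 142 and 5915 counts in CtbpDKO and 4 and 2 in Ctbp_DuxTKO.

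Set beside unmodified cells, the triple knockout had 2-cell RNA at or near the WT level. Zscan4c was at 0.403 and 0.0978 CPM in WT, 9.85 and 13.3 CPM in CtbpDKO, 0 and 0 CPM in DuxKO and 0.13 and 0 CPM in Ctbp_DuxTKO. Of the 60 tested list members, 49 were higher and 2 lower in CtbpDKO than in WT (background 14.7% and 11.4%), whereas 8 were higher and 2 lower in Ctbp_DuxTKO than in WT (background 15.6% and 13.9%). These comparisons share libraries with each other and are given only side by side. Zscan4f was lower in Ctbp_DuxTKO than in WT (0.0433 and 0 CPM against 0.503 and 0.228 CPM), and the summed level of the 9 markers of 2-cell-like cells was 0.26 and 0.136 CPM in Ctbp_DuxTKO, 0.939 and 0.522 CPM in WT and 30.0 and 37.2 CPM in CtbpDKO. Pramel7, a preimplantation gene known for lowering DNA methylation, was at 2.04 and 2.21 CPM in CtbpDKO and 1.30 and 1.43 CPM in Ctbp_DuxTKO, with 0 and 0.0652 CPM in WT, and the difference between the 2 knockouts did not pass the test (log2 fold change −0.64 ± 0.50, adjusted p = 0.494, edgeR). Of the 8 tested Pramel-family genes 1 was called, Pramef12, which was higher, beside a background of 3.60% called higher and 4.54% lower. That call was lost whichever of the 4 libraries was left out.

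In the other direction, most tested primitive endoderm genes rose. Primitive endoderm is the extraembryonic lineage next to the epiblast; GATA6, GATA4 and SOX17 specify it, and its cells make a laminin and collagen IV basement membrane and take up nutrients through the cubilin, megalin (Lrp2) and DAB2 receptors. Of 26 tested list members, 18 were higher in Ctbp_DuxTKO and 0 lower, and all 26 estimates lay above 0. The median log2 fold change was 1.44, against 0.00 over all tested genes and a background of 3.60% called higher. The count was 12 to 13 when 1 of the 4 libraries was left out and 15 to 20 under the other alternatives run, none of which called a member lower.

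Among the transcription factors, Gata6 was at 4.36 and 6.37 CPM in CtbpDKO and 11.7 and 10.7 CPM in Ctbp_DuxTKO, a log2 fold change of 1.06 ± 0.28 (adjusted p = 0.0347, edgeR). Gata4 rose from 6.74 and 6.73 CPM to 18 and 18.1 CPM, a log2 fold change of 1.42 ± 0.15 (adjusted p = 0.000131). Sox17 rose from 3.81 and 2.43 CPM to 14 and 11.1 CPM, a log2 fold change of 2.00 ± 0.31 (adjusted p = 0.00169). None of the 3 had a double knockout library as high as a triple knockout library. The nuclear receptor gene Hnf4a and the forkhead gene Foxa2 also rose, by log2 fold changes of 1.60 and 1.89, from low levels; Hnf4a had 27 and 44 counts in CtbpDKO and 87 and 74 in Ctbp_DuxTKO, and the calls of Hnf4a, Foxa2 and Gata6 were lost whichever of the 4 libraries was left out. Sox7, another SOX factor of this lineage, was at 1.65 and 1.34 CPM against 1.91 and 1.73 CPM and did not pass the test.

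The receptor and matrix genes had log2 fold changes from 0.57 to 2.90. Cubn, which encodes cubilin, was at 14 and 15.8 CPM in CtbpDKO and at 122 and 99.1 CPM in Ctbp_DuxTKO, a log2 fold change of 2.90 ± 0.32 (adjusted p = 0.000186, edgeR). Dab2, the adaptor of its endocytosis, rose from 15.5 and 17.9 CPM to 70.1 and 78.9 CPM, a log2 fold change of 2.16 ± 0.18 (adjusted p = 1.98e-05). Both genes had each triple knockout library several times above each double knockout library. The laminin genes Lama1 (90.7 and 85.1 CPM against 347 and 328 CPM) and Lamb1 (61.2 and 57.0 CPM against 208 and 180 CPM) had log2 fold changes of 1.94 ± 0.11 and 1.72 ± 0.11, with adjusted p of 8.92e-07 and 1.14e-06. Lamc1, Col4a1, Col4a2 and Sparc rose by log2 fold changes of 0.69, 1.31, 1.45 and 0.57. Pdgfra, the receptor used to sort these cells, rose by 1.40, Lrp2 by 0.98, the proteoglycan gene Srgn by 2.58 and the hedgehog ligand gene Ihh by 2.38, from 0.122 and 0.307 CPM to 1.21 and 1.09 CPM. The Ihh call was lost whichever of the 4 libraries was left out, and that of Sparc without CtbpDKO replicate 1. The 9 primitive endoderm markers used to check cell types summed to 56.9 and 58.2 CPM in CtbpDKO, 262 and 240 CPM in Ctbp_DuxTKO, 54.7 and 42.0 CPM in WT and 9.05 and 9.48 CPM in DuxKO.

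Lists for the other lineages held fewer calls than the primitive endoderm list, beside a background of 3.60% called higher and 4.54% lower. Trophoblast markers summed to 27.9 and 30.0 CPM in CtbpDKO and 26.2 and 35.2 CPM in Ctbp_DuxTKO, and 1 of 25 tested trophoblast list genes was called, Id2, which was higher. Of 15 mesoderm genes 2 were higher (13.3%), among them Evx1, and 0 lower. Of 13 neural genes 2 were higher (15.4%), Pax6 and Sox11, and 1 lower (7.69%), Tubb3. The calls for Id2, Evx1, Pax6, Sox11 and Tubb3 were each lost without at least 1 of the 4 libraries, and each library left out ended at least 4 of them. The fibroblast markers summed to 15 and 15 CPM against 8.54 and 10.7 CPM, with 3 of the 10 at 0 in both groups and 1 called, Pdgfrb, which was lower, a call lost without CtbpDKO replicate 1 or Ctbp_DuxTKO replicate 1. Whether a change in the share of endoderm-like cells, or in the RNA of each cell, lay behind the marker values was not tested.

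**Figure D3:**
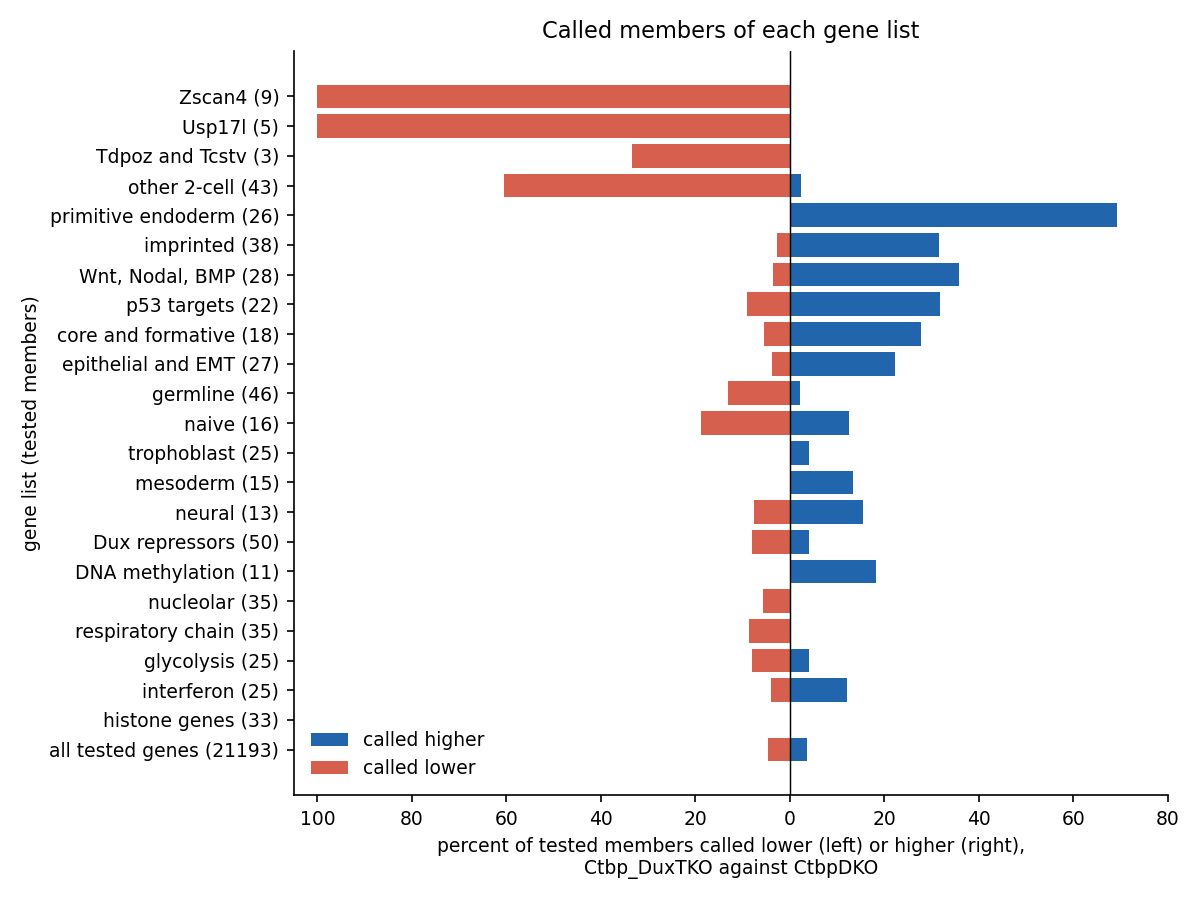
Bars give, for each gene list, the percent of its tested members called lower (red, to the left) and higher (blue, to the right) in Ctbp_DuxTKO against CtbpDKO, with the number of tested members in parentheses. The bottom bar is the background over all tested genes, 4.54% lower and 3.60% higher; the Zscan4 and Usp17l bars reach 100 on the left and the primitive endoderm bar is the longest on the right.

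Several genes of the formative epiblast and of the Wnt and Nodal pathways rose with Dux loss. Of 18 core and formative genes 5 were higher and 1 lower, and the median log2 fold change was 0.24. Lef1, the nuclear effector of Wnt signalling on chromosome 3 (GRCm38.p6 chr3:131110297-131224357), was at 4.18 and 3.97 CPM in CtbpDKO and 20.4 and 35.5 CPM in Ctbp_DuxTKO, a log2 fold change of 2.78 ± 0.23 (adjusted p = 2.31e-05, edgeR). Fgf5, a growth factor gene of the primed epiblast, rose from 0.671 and 0.81 CPM to 3.51 and 4.14 CPM, by 2.36 ± 0.33. The 2 triple knockout libraries differed from each other for Lef1 but both lay well above the double knockout. Otx2 (7.04 and 8.38 CPM against 21.6 and 23.7 CPM), Pou3f1 and Zic2, 3 transcription factors of the same stage, had log2 fold changes of 1.55, 0.95 and 0.84, and Etv4, a target of FGF signalling, was lower by −0.73. Of 28 tested Wnt, Nodal and BMP genes 10 were higher and 1 lower (median 0.51), where 3.60% of all tested genes were higher and 4.54% lower. Beside Lef1 they included the Wnt antagonists Dkk1 (2.23) and Notum (0.79), the Nodal targets Lefty1 (0.86) and Lefty2 (0.78), the SMAD corepressor Skil (1.14) and the BMP targets Id2 (0.92) and Id3 (0.79). Cdx1, a caudal homeobox gene responsive to Wnt, fell from 5.76 and 5.17 CPM to 1.17 and 1.39 CPM (log2 fold change −2.08 ± 0.27, adjusted p = 0.000537). Calls for Dkk1, Lefty1 and Id2 were lost without at least 1 of the 4 libraries, CtbpDKO replicate 2 in the case of Lefty1.

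Among 16 naive pluripotency genes 2 were higher (12.5%) and 3 lower (18.8%), with a median of −0.02. Over all tested genes the shares were 3.60% and 4.54%. The LIF receptor chain genes Il6st and Lifr rose by 0.43 and 0.35, and Tcl1, Tbx3 and Esrrb fell, with log2 fold changes of −0.53, −0.39 and −0.36. All 5 of these calls were lost without at least 1 of the 4 libraries. Klf4 (50.7 and 52.1 CPM against 55.4 and 46.9 CPM) and Zfp42 (405 and 395 CPM against 301 and 345 CPM) were not called.

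Of 38 tested imprinted genes, which are expressed from 1 parental allele, 12 rose (31.6%), and the median log2 fold change was 0.52. Over all tested genes 3.60% were called higher and 4.54% lower. Another member, Commd1, was called lower, a call lost with RLE or upper quartile scaling. The largest values came from the Dlk1-Dio3 domain of chromosome 12. Meg3, its maternally expressed long noncoding RNA (GRCm38.p6 chr12:109540996-109571729), was at 1.95 and 1.90 CPM in CtbpDKO and 8.84 and 9.58 CPM in Ctbp_DuxTKO, a log2 fold change of 2.26 ± 0.18 (adjusted p = 2.71e-05, edgeR). Rian, from the same transcript cluster, rose from 4.64 and 4.86 CPM to 21.8 and 21.5 CPM, by 2.19 ± 0.13 (adjusted p = 9.5e-07). In WT Meg3 was at 17.9 and 20 CPM and Rian at 41.1 and 43.6 CPM, so both stayed lower in the triple knockout than in WT. Rtl1, Mirg and Dlk1, also in the domain, had log2 fold changes of 2.10, 1.99 and 1.82. The annotated spans of Rtl1 and Meg3 overlap, and the Rtl1 span also reaches into that of Rian. Rtl1 has an antisense transcript, so reads could be divided between these genes if the counting ignored strand. Outside the domain, the zinc finger gene Peg3 rose from 31.4 and 32.0 CPM to 107 and 111 CPM (1.78 ± 0.10, adjusted p = 4.76e-07) and the cell cycle inhibitor Cdkn1c from 10.8 and 8.86 CPM to 29.4 and 30.2 CPM (1.60 ± 0.12). H19, Plagl1, Mest, Phlda2 and Grb10 rose by 0.92, 0.87, 0.65, 0.61 and 0.51. Calls for Dlk1, H19, Plagl1 and Phlda2 were lost without at least 1 of the 4 libraries.

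**Figure D4:**
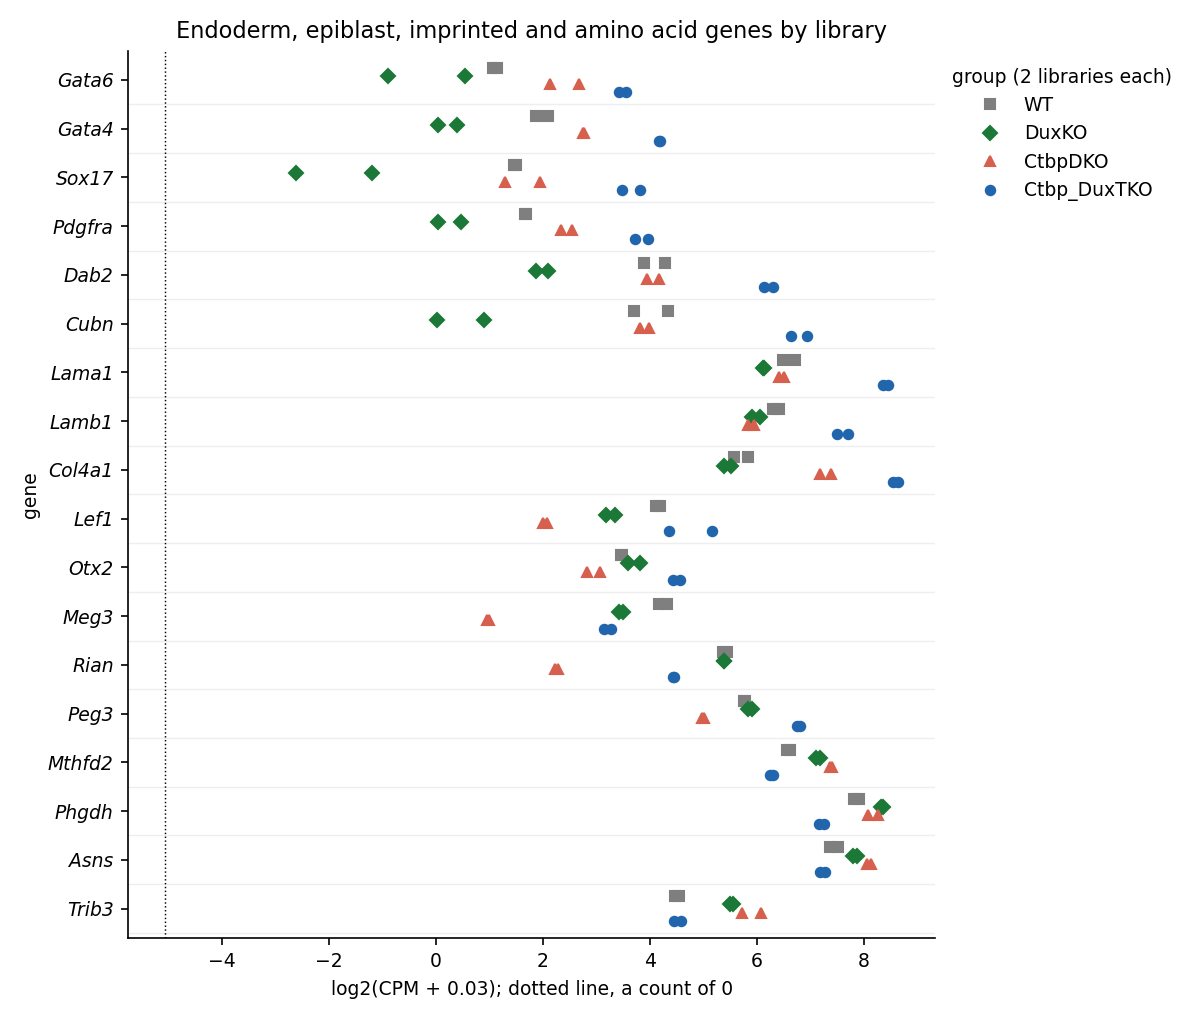
Each row is a gene and each symbol a library, with log2(CPM + 0.03) on the x axis; groups and symbols are as in the plot of 2-cell genes by library. For the rows from Gata6 to Peg3 both Ctbp_DuxTKO libraries (blue circles) lie to the right of both CtbpDKO libraries (red triangles), and for Mthfd2, Phgdh, Asns and Trib3 they lie to the left.

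Of all higher genes with at least 50 counts on average and a named symbol, Cplx2 had the largest fold change. Cplx2 encodes complexin 2, a regulator of vesicle fusion. It had 0 and 5 counts in CtbpDKO and 549 and 1732 in Ctbp_DuxTKO, or 23.8 and 58.8 CPM, and in WT it was at 0.47 and 0.456 CPM. The 2 triple knockout libraries differed from each other by more than 2-fold, and both stood far above every other library of the 4 groups. Vrtn, which acts in vertebral patterning, rose from 0.488 and 0.363 CPM to 5.77 and 4.48 CPM (3.58 ± 0.32, adjusted p = 4.04e-05, edgeR). Enpp2, the gene of autotaxin, and Insm1, a zinc finger factor of neuroendocrine cells, had log2 fold changes of 3.16 ± 0.45 and 2.78 ± 0.32. The hexokinase-like gene Hkdc1 (3.32), the chloride channel genes Clic5 (3.11) and Clic6 (2.94), the lipid kinase gene Dgkk (3.34), the cadherin Cdh6 (2.76), Zfp608 (2.66) and the mRNA export gene Nxf7 (2.64) followed, with levels under 7 CPM in both groups. Calls for Dgkk, Hkdc1, Clic5, Cdh6 and Nxf7 were lost without at least 1 of the 4 libraries. Lef1os1, the antisense neighbour of Lef1, had a log2 fold change of 2.87, and its reads cannot be told apart from those of Lef1 where the counting ignored strand. With higher levels and small errors, Epas1, which encodes the hypoxia factor HIF-2α, rose from 35.1 and 37.2 CPM to 103 and 99.4 CPM (1.49 ± 0.10) and the protease gene Adamts9 from 25.3 and 27.4 CPM to 58.0 and 57.9 CPM (1.14 ± 0.09).

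Outside the 2-cell families, the lower genes with the smallest p-values included several enzymes of amino acid metabolism. Mthfd2, the mitochondrial folate enzyme of one-carbon metabolism, was at 169 and 165 CPM in CtbpDKO and 75.8 and 78.8 CPM in Ctbp_DuxTKO, a log2 fold change of −1.11 ± 0.08 (adjusted p = 5.64e-06, edgeR). Phgdh, which starts serine synthesis, fell from 305 and 268 CPM to 142 and 152 CPM (−0.96 ± 0.10, adjusted p = 0.000112), and Aldh18a1, which starts proline synthesis, from 101 and 88.9 CPM to 49.1 and 50.8 CPM (−0.92 ± 0.10). In each case the triple knockout was also lower than WT, where Mthfd2 stood at 98.4 and 94.3 CPM and Phgdh at 239 and 226 CPM. Gars, the glycyl-tRNA synthetase gene, fell from 369 and 358 CPM to 197 and 213 CPM (−0.83 ± 0.09, adjusted p = 0.00013). Trib3, a pseudokinase gene of the integrated stress response, was at 67.1 and 52.6 CPM against 21.9 and 23.9 CPM (−1.38 ± 0.14). Mid1ip1, a regulator of fatty acid synthesis, fell by 1.46 on the log2 scale, the growth factor gene Hbegf by 1.29, the transcription factor gene Mef2b by 1.75 and Hap1, which encodes a partner of huntingtin, by 1.13.

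Lists for other processes differed in their share of calls. Of 46 germline genes 6 were lower and 1 higher, with a background of 4.54% and 3.60%. Stra8, a meiotic gene induced by retinoic acid, fell from 30.5 and 22.7 CPM to 6.46 and 7.64 CPM (−1.91 ± 0.17, adjusted p = 4.18e-05, edgeR), Tex13b by 1.88 on the log2 scale and the meiotic cohesin gene Stag3 by 0.74. Stra8 remained higher in Ctbp_DuxTKO than in WT, where it was at 2.52 and 1.76 CPM. Of 50 genes known to hold Dux down, 2 were higher (Atf7ip and L3mbtl2) and 4 lower (Zeb1, Chaf1b, Hdac1 and Myc), and of 9 known activators 1 was higher, Usf1. All 7 of these calls were lost without Ctbp_DuxTKO replicate 1, and all but Atf7ip without CtbpDKO replicate 2 as well. Among the activators Dppa2 was at 89.9 and 101 CPM in CtbpDKO and 84.4 and 95.4 CPM in Ctbp_DuxTKO, and Dppa4 at 55.3 and 53 CPM against 50.6 and 55.3 CPM, without a call. Of 22 p53 targets 7 were higher (31.8%), led by Perp (1.09), Eda2r (0.98) and Trp53inp1 (0.92), and 2 lower, Gdf15 (−0.78) and Sesn2 (−0.34), while Cdkn1a and Mdm2 were not called. Both lower calls were lost without CtbpDKO replicate 1 or Ctbp_DuxTKO replicate 1. Of 27 genes of epithelial adhesion and its loss 6 were higher and 1 lower. The higher genes included the junction genes Cldn6 (1.43) and Dsp (1.24), the regulators Grhl2 (1.20) and Esrp1 (0.75) and Twist1 (1.04), which drives the mesenchymal transition and so differs in role from the others. The lower gene was Zeb1 (−0.66), a repressor of epithelial genes. The Twist1 call was lost without CtbpDKO replicate 2 or Ctbp_DuxTKO replicate 1.

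The remaining lists had few calls in number, beside a background of 3.60% called higher and 4.54% lower. The 11 DNA methylation genes had 2 higher, Tet3 (0.43) and Dnmt3l (0.40), and 0 lower, both calls lost without CtbpDKO replicate 1, CtbpDKO replicate 2 or Ctbp_DuxTKO replicate 1, with Dnmt1 at 378 and 373 CPM against 303 and 352 CPM. Of 25 interferon genes 3 were higher and 1 lower; the guanylate-binding protein gene Gbp2 had the largest estimate, 4.80 ± 0.91, from 0.061 and 0 CPM to 0.867 and 0.985 CPM, a call lost without CtbpDKO replicate 2. The 35 nucleolar genes had 0 higher and 2 lower (5.71%), the 35 respiratory chain genes 0 and 3 (8.57%) and the 25 glycolysis genes 1 and 2 (8%). Of the 33 histone genes edgeR called 0 in either direction. An unadjusted p under 0.05 (edgeR) was held by 5 nucleolar, 17 respiratory chain, 9 glycolysis and 6 histone genes, against 4839 of all 21193. Estimates lay below 0 for 24, 31, 20 and 20 of these lists' members, against 10557 of all.

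The response to Dux loss differed between cells without and with Ctbp. The difference of the 2 responses, Ctbp_DuxTKO against CtbpDKO minus DuxKO against WT, was tested as an interaction and was above 0 for 2081 genes (9.82%) and below 0 for 2043 (9.64%). The total of 4124 was 2638 without DuxKO replicate 1. The number below 0 was 1299 without CtbpDKO replicate 1, 1326 without WT replicate 1, 1237 without DuxKO replicate 1 and 1341 without DuxKO replicate 2. For the primitive endoderm list it was above 0 for 20 of 26 genes and below 0 for none, with a median of 2.30. In DuxKO against WT, 16 of the 26 were lower and 1 higher (background 9.56% and 7.94%), the opposite direction to Dux loss without Ctbp. Cubn was at 20.1 and 13 CPM in WT and 0.986 and 1.83 CPM in DuxKO, and its interaction was 6.44 (adjusted p = 4.54e-06, edgeR). Dab2, at 19.4 and 14.8 CPM in WT and 4.22 and 3.62 CPM in DuxKO, had an interaction of 4.29 (adjusted p = 5.43e-07), and Cdkn1c, at 29.0 and 29.4 CPM in WT and 3.84 and 3.72 CPM in DuxKO, one of 4.54 (adjusted p = 3.54e-08). The 3 genes were thus lower without Dux where Ctbp was present and higher without Dux where it was absent. Mthfd2 (98.4 and 94.3 CPM in WT, 145 and 138 CPM in DuxKO) showed the reverse, with an interaction of −1.66 (adjusted p = 1.21e-06), and Trib3 had −2.40 (adjusted p = 4.56e-06). For most Zscan4 and Usp17-like genes the interaction could not be estimated with any precision, because WT, DuxKO and Ctbp_DuxTKO were all at or near 0. Of the 60 tested 2-cell list genes, the interaction was called above 0 for 5 and below 0 for 5, beside 9.82% and 9.64% of all tested genes. Below 0, Gm4340 had an interaction of −7.38 (adjusted p = 0.0027, edgeR) and Eif4a3l1 one of −5.58 (adjusted p = 0.00647, edgeR). Above 0, AU018091 had 2.48 (adjusted p = 5.43e-07, edgeR) and Pnma5 3.90 (adjusted p = 0.00336, edgeR).

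The time course gave a separate set of libraries, sharing none with the knockouts above, in which Ctbp2 RNA went up and came down again. Ctbp2 had 1184 and 1328 counts on day 0, 11119 and 11231 on day 3, 8466 and 6774 on day 9, 866 and 1268 on day 12, and 926 and 1646 on day 18, in libraries of 16674526 to 30169626 counts. On day 3 against day 0, 496 genes were higher (2.41%) and 533 lower (2.59%), and on day 9, 743 were higher (3.60%) and 769 lower (3.73%). The day 3 total of 1029 was 515 to 607 without a day 0 library and 340 to 455 without a day 3 library, and the day 9 total of 1512 was 666 and 969 without the day 0 libraries and 652 and 745 without the day 9 libraries. Of the 41 2-cell genes that fell without Dux, 4 were lower on day 3 and 34 on day 9, with a day 9 median log2 fold change of −2.40. Of the 121 measured genes that fell by at least 2 without Dux, 76 (62.8%) were lower on day 9 and 1 higher. Over all 962 measured genes that fell without Dux, 125 (13%) were lower on day 9 and 97 (10.1%) higher, with a median of 0.00, and the 125 were 76 without day 0 replicate 1 and 73 without day 9 replicate 2. Zscan4c had 272 and 235 counts on day 0, 204 and 297 on day 3, 68 and 54 on day 9, 40 and 70 on day 12, and 162 and 291 on day 18, and its day 9 log2 fold change was −2.31 ± 0.23 (adjusted p = 4.38e-05, edgeR). Gm4340 had 2599 and 2264 counts on day 0, 499 and 176 on day 9, and 800 and 2118 on day 18. Relative to library size, both genes stood lower on days 9 and 12 than on day 18, a comparison that was not tested. Duxf3 itself had 20 and 19 counts on day 0 and 17 and 3 on day 9, a difference that did not pass the test at this depth.

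Of all 747 measured genes that rose without Dux, 81 (10.8%) were higher and 89 (11.9%) lower on day 9, shares near those over all genes that fell. Over all tested genes of the time course the day 9 shares were 3.60% higher and 3.73% lower. The 81 were 33 and 45 without day 0 replicates 1 and 2 and 37 and 41 without day 9 replicates 1 and 2. Of the 62 measured genes that rose by at least 2 without Dux, 5 were higher and 4 lower on day 9, and of 25 primitive endoderm genes 3 were higher and 4 lower. Cubn was lower on day 9 (61 and 107 counts on day 0, 38 and 23 on day 9; log2 fold change −1.70, adjusted p = 0.00346, edgeR), and Lama1 was higher (624 and 855 against 1461 and 1218 counts; 0.62, adjusted p = 0.00474). By day 18 Cubn had 606 and 935 counts. The labels give the days but not on which of them doxycycline was present, so the link between Ctbp2 RNA and a treatment was not tested.

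**Figure D5:**
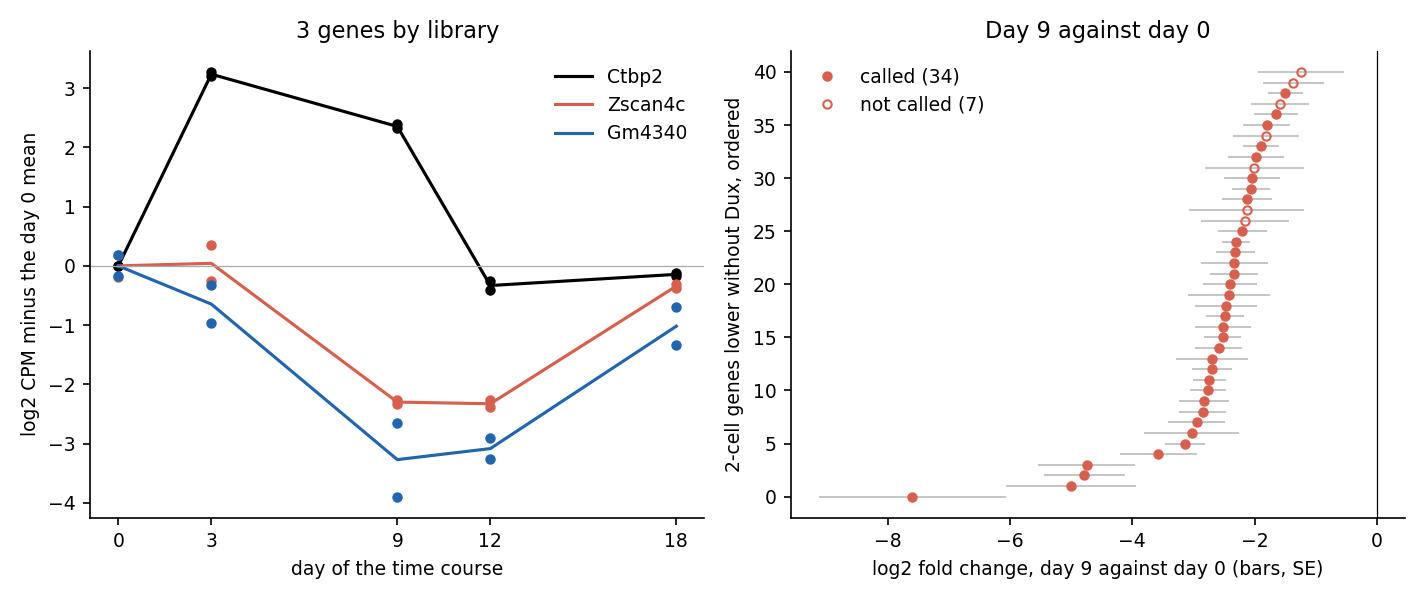
Left, log2 CPM minus the day 0 mean against the day of the time course for Ctbp2, Zscan4c and Gm4340, with points for the 2 libraries of a day and lines through their means; Ctbp2 is high on days 3 and 9 and the other 2 genes are low on days 9 and 12. Right, fitted log2 fold change of day 9 against day 0 with its SE for the 41 2-cell genes that fell without Dux, ordered by value; all 41 lie below 0 and 34 are called.

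Chromosome-wide shifts were small. The median log2 fold change over genes whose average log2 CPM reached 2 lay between −0.11 and −0.01 on the autosomes and at 0.03 on the X. On the Y it was 0.62 over 7 genes, and of 11 tested Y-linked genes 6 were higher and 0 lower. Over all tested genes 3.60% were higher and 4.54% lower. Uba1y, a ubiquitin-activating enzyme gene of the Y, was at 6.13 and 5.42 CPM in CtbpDKO and 16.4 and 17 CPM in Ctbp_DuxTKO (log2 fold change 1.53 ± 0.23, adjusted p = 0.00154, edgeR), and Ddx3y and Uty rose by 0.62 and 0.92. Zfy1, the Y-linked zinc finger gene, rose from 9 and 12 to 47 and 64 counts, a call lost whichever of the 4 libraries was left out. The calls for Ddx3y and Uty were lost without CtbpDKO replicate 1 or Ctbp_DuxTKO replicate 1, and that of Uty also without Ctbp_DuxTKO replicate 2. Y genes also differed from WT in the other knockouts. In CtbpDKO against WT, 3 of the 11 were higher and 1 lower (background 14.7% and 11.4%). In DuxKO against WT, Gm2098, Uba1y, Eif2s3y, Uty and Ddx3y were called higher and 0 were lower (background 7.94% and 9.56%). Uba1y was higher than WT by 2.10 in CtbpDKO and 1.85 in DuxKO, and Ddx3y by 0.99 and 0.90. The Y genes were read as a set after their values were seen.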

How the data were processed

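RNA-seq gene counts were analysed as deposited. Per the submitters' processing notes, Trim Galore, HISAT2, featureCounts and Bismark were used with mm10, without roles or versions; strand setting and the treatment of multiply mapped reads are not given in the sources used here. The deposited counts are whole numbers per gene. Groups came from sample titles and column names; 1 group, without Ctbp and Dppa2, has a title that names Dux in place of Ctbp and was grouped by its description. The 12 libraries (19944644 to 36025046 counts) were fitted together in edgeR 4.0.16 (R 4.3.3, limma 3.58.1) with filterByExpr, TMM factors, group as the only term and a quasi-likelihood F test, with Benjamini-Hochberg adjustment and a threshold of 0.05. The time course was fitted separately. SEs were computed as the absolute log2 fold change over the square root of F. A gene at 0 was bounded with a floor of 3 counts per library, and pooled ratios carry exact 95% intervals. For the bounded median of the 2-cell lists, genes with at most 3 counts in each triple knockout library were set to that floor. Precision is set by 2 libraries per group. Chi-square per gene between replicates was 18.1 to 43.8, so no library was a duplicate. A second deposited table held the same values at 442208 of 442208 shared places.

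Genes were named by rule: Duxf3, Ctbp1, Ctbp2 and the tested 2-cell members; up to 6 called members of each other list plus its best known members; the 15 largest changes in each direction with at least 50 counts, no overlap and no Gm or Rik symbol; the 10 smallest p-values in each direction with at least 500 counts; and the 6 largest interactions in each direction with at least 50 counts and no overlap between the double and triple knockout libraries. Other list members and predicted genes named beside these were chosen after their values were seen. The members, lists and tests were chosen with earlier results of these data known. RefSeq tables of GRCm38.p6 gave positions and promoters; 18245 symbols matched. Replicate numbers were checked for pairing: over 15 pairs of groups the correlation of same-numbered deviations was −0.408 to 0.205. The highest value, 0.205, was that of CtbpDKO with Ctbp_DuxTKO, the 2 groups compared. The labels give no pairing, so the main fit used no block, and a replicate block was run as an alternative. Alternatives were RLE and upper quartile factors, DESeq2 1.42.0, other count filters, only the 4 libraries, the fit without the group of conflicting titles, a minimum fold change, a prior count of 2 in place of 0.125, the replicate block, each library left out and, added after the data were seen, a table without structural RNA and mitochondrial genes. The procedure was tested on simulated counts. Bisulfite data and the other tables were not used here.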

Additional observations from a re-analysis of the deposited data

Results flagged for a closer look

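Results are listed here because the response to Dux loss differed between cells without and with Ctbp by the test of the difference itself (edgeR interaction term). That test called 4124 genes, and 20 of the 26 primitive endoderm genes were called with a value above 0. Each following value is the fitted log2 difference of the 2 responses. Below 0 they were −9.40 for Zscan4d, −5.58 for Eif4a3l1, −4.05 for the growth factor gene Csf1, −4.02 for the protease gene Mmp9, −3.95 for Cdx1 and −3.42 for Eif4a3l2. Csf1 and Mmp9 were chosen by their interaction and were not called between the double and triple knockout; Csf1 was at 0.519 and 0.615 CPM in CtbpDKO and 0.39 and 0.272 CPM in Ctbp_DuxTKO. Above 0 they were 10.15 for the serine protease gene Habp2, 8.67 for Hnf4a, 8.27 for Cplx2, 7.86 for Hkdc1, 7.60 for Nostrin and 6.45 for the FGF coreceptor gene Klb. Habp2 and Hnf4a had no count in DuxKO, and Zscan4d had none in Ctbp_DuxTKO, while Cplx2, Hkdc1, Nostrin and Klb had a library at 0 in CtbpDKO or DuxKO; the fitted values of these genes depend on the prior count and are no bounds.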

How the results depend on the processing

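No called gene named in the text changed sign under an alternative; of 182 such genes, 113 to 144 kept their call when 1 of the 4 libraries was left out. The median log2 fold change of all genes was 0.002 with TMM, 0.016 with RLE and 0.03 with upper quartile factors. Called genes were 764 higher and 963 lower with TMM, 808 and 870 with RLE, and 835 and 788 with upper quartile factors. Which direction held more calls thus depended on the scaling. With 1 library left out the ranges were 558 to 1250 genes changed, 301 to 508 higher and 257 to 742 lower, 25 to 31 2-cell genes lower and 1 to 2 higher, 12 to 13 primitive endoderm genes higher, 2638 to 3710 genes in the interaction (1401 to 1693 above 0, 1237 to 2017 below) with 19 to 21 primitive endoderm genes, 340 to 891 genes on day 3 and 652 to 1366 on day 9. Of the genes lower without Dux, 23 to 53 were then lower on day 3 and 73 to 117 on day 9; of those higher, 18 to 42 and 33 to 76 were higher. With no filter on low counts 1172 genes were higher, 2 2-cell genes were higher and 1634 genes changed on day 3; with at least 1 CPM in 2 libraries 2 2-cell genes were higher. With only the 4 libraries compared 670 genes were higher and 538 lower. A minimum log2 fold change of 1 left 537 genes (329 higher, 208 lower) and 1766 in the interaction (1274 above 0, 492 below). DESeq2 called 18 2-cell genes lower. The looser GATTNNATC lay in 3.70% of promoters of lower genes, 0.56% of higher and 1.25% of all; the shorter TGATT in 33.0%, 45.9% for genes lower by at least 2, 38.8% of higher and 33.4% of all. The causes of these shifts were not tested, beyond the smaller number of libraries or genes. With the replicate block, which the design does not give, 1339 genes changed (623 higher, 716 lower), 39 2-cell genes were lower, 18 primitive endoderm genes higher and 3598 genes entered the interaction.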

Other observations

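Read as families after their values were seen, and so without a test, many genes of aminoacyl-tRNA synthesis and amino acid supply were lower in Ctbp_DuxTKO than in CtbpDKO. Of 20 tested cytosolic aminoacyl-tRNA synthetase genes, which charge tRNAs with their amino acids, 16 were called lower and 0 higher, where 4.54% of all tested genes were called lower and 3.60% higher, with a median log2 fold change of −0.42 against 0.00 over all genes. Of the 17 mitochondrial synthetase genes 1 was called lower, with a median of −0.08. The cytosolic count was 14 with RLE or upper quartile scaling, 16 by DESeq2 and 9 to 11 when 1 of the 4 libraries was left out. Sars was at 257 and 232 CPM in CtbpDKO and 130 and 157 CPM in Ctbp_DuxTKO, and Nars at 381 and 349 CPM against 224 and 214 CPM. Neither gene had overlapping libraries. Against the same 4.54%, of 14 serine, glycine and one-carbon enzymes 6 were lower, among them Psat1 (259 and 270 CPM against 147 and 155 CPM), and of 10 enzymes of asparagine, proline and alanine synthesis 6 were lower, among them Asns (266 and 280 CPM against 145 and 155 CPM). Atf4, the transcription factor of the amino acid response, was at 359 and 301 CPM in CtbpDKO, 218 and 196 CPM in Ctbp_DuxTKO, 169 and 176 CPM in WT and 380 and 353 CPM in DuxKO, and its interaction was −1.76 (adjusted p = 5.48e-06, edgeR).

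Within the laminin family, also read after its values were seen, 4 of 9 tested genes were higher and both tested collagen IV genes were higher, while 5 of the 6 tested genes of the Dlk1-Dio3 domain were higher, where 3.60% of all tested genes were.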
